A study of Homo sapiens with 2 samples.

Results

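Glutathione S-transferases were followed through 10 genes: GSTO1, GSTO2, GSTP1, GSTA4, GSTT1, GSTM1, GSTM2, GSTM3, GSTM4 and MGST1. They were chosen by name, as every probe whose gene name in the array files is 1 of these, which gave 16 probes. The arrays carry 41000 probes under 30238 gene names, so the members are 10 of 30238 genes. The cells were A2780, an established human ovarian carcinoma line, and 2 drug-resistant lines derived from it. A2780CBN had been selected in rising doses of carboplatin up to 22.2 µM. A2780CBNDXL had been selected in carboplatin and docetaxel together, for which the labels give a final dose of 8.02 µM. The study's methods give another final dose, with docetaxel far below carboplatin in concentration. The study reports the label's figure for carboplatin as a measured inhibitory concentration and not as the selection dose. A co-cultured control, A2780CC, had been kept alongside each resistant line without drug. RNA of 3 isolations was pooled into 1 sample for each line, and each sample was hybridized with its control to 4 arrays.

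On forward arrays the control was labelled with Cy3 and the resistant line with Cy5, and on reverse arrays the dyes were exchanged. Each line had 1 forward and 1 reverse array on each of 2 slides. Values are given below in the order forward and reverse on slide 1, then forward and reverse on slide 2. The 4 arrays repeat 1 pooled sample, so an SD over arrays (n = 4 unless stated) is the spread of labelling and hybridization. It does not include the spread between cultures, and no test across samples was possible. Levels are processed intensities in arbitrary units, and ratios are log2 of resistant line over control, taken as the mean of the forward mean and the reverse mean. A gene was called changed when this mean was at least 1 in size, meaning 2-fold, when its arrays all had the same sign, and when its probe was well above background in 1 channel on each of them. Because these are bulk samples, fewer cells of a type and less RNA per cell cannot be told apart.

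Glutathione S-transferases join the tripeptide glutathione to reactive compounds, which makes the products more soluble and fit for export from the cell. The soluble enzymes fall into classes named by Greek letters, and the microsomal enzymes form a separate membrane-bound family. Platinum drugs react with glutathione, and the enzymes have long been studied in ovarian cancer cells for that reason.

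The label of the cells was checked against markers of epithelial cells. Of 9 markers 8 were found on the arrays, and KRT18 was the brightest of them in each channel of each line. WT1, CDH1 and MUC16 were not well above background on any array. The summed intensity of the 8 markers was 3902 in A2780CBN and 2275 in its control, and 3872 in A2780CBNDXL and 2577 in its control. Of 5 tested in A2780CBN, 3 were above the control, EPCAM (log2 ratio 2.07 ± 0.30), KRT18 (1.05 ± 0.16) and PAX8 (0.21 ± 0.43), and 2 below it, KRT8 (-0.37 ± 0.17) and KRT19 (-0.48 ± 0.51). Of 4 tested in A2780CBNDXL all were above it, with a median of 0.42 and EPCAM at 1.67 ± 0.24.

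Of the 10 transferase genes, 9 had a probe well above background in each line, and GSTM3 did not. In A2780CBN 2 of the 9 genes were called higher, GSTO1 and GSTM2, and 0 were called lower. Among all 18598 genes tested in that line 7.78% were called higher, 4.45% lower and 12.2% in either direction. In A2780CBNDXL 3 of 9 were called higher, GSTO2, GSTM1 and GSTM2, and 0 lower. Among all 17905 genes tested there 7.53% were called higher, 9.02% lower and 16.6% in either direction. The median log2 ratio of the 9 members was 0.69 in A2780CBN, where the median of all genes was -0.06. In A2780CBNDXL it was 0.80, where that of all genes was 0.04. The members were chosen with earlier results of these data known, so these medians do not test a shift of the class. The plot of members by array shows that several genes moved by less than 2-fold and that the mu class differed between labelling directions.

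**Figure D1:**
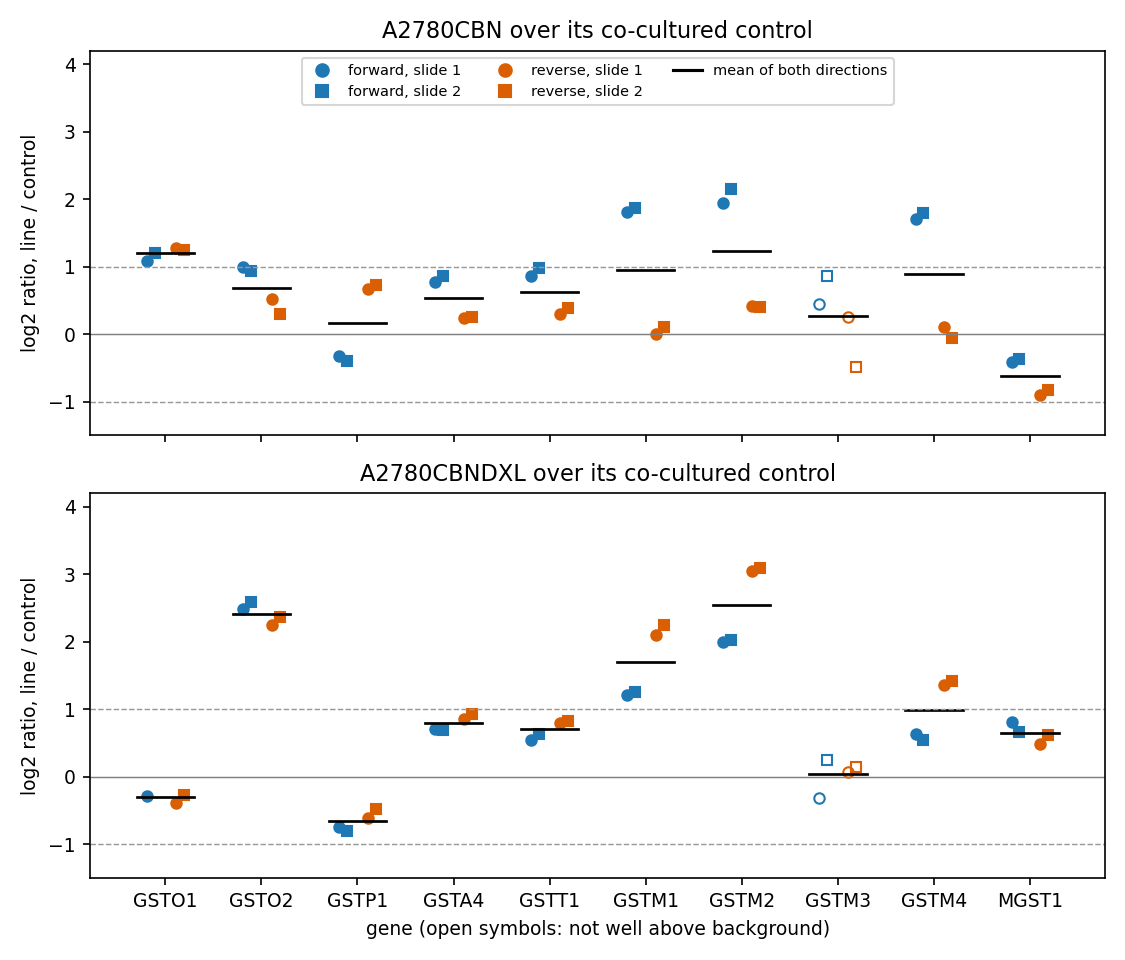
Log2 ratio of resistant line over control (vertical axis) for the members, with 1 point for each array and a line at the mean of each gene, for A2780CBN and A2780CBNDXL. The arrays of GSTO1 lie between 1.08 and 1.27 in A2780CBN, and those of GSTO2 between 2.24 and 2.58 in A2780CBNDXL.

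The omega class has 2 members, GSTO1 and GSTO2, whose active site holds a cysteine. Both enzymes reduce dehydroascorbate with glutathione, and GSTO1 also removes glutathione from modified proteins. Their genes are neighbours on chromosome 10. The probe of GSTO1 lies at chr10:106015855-106015914 and that of GSTO2 at chr10:106047336-106047395, both on the plus strand of NCBI36. The probe sequences are shown because the genes are alike in sequence and gave different ratios. Capitals mark the bases that match the other omega probe when the probes are aligned without gaps.
GSTO1 probe: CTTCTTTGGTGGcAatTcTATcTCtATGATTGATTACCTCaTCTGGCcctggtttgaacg
GSTO2 probe: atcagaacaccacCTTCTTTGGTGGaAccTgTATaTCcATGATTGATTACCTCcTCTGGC

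The omega probes matched at 40 of 47 aligned bases, with a longest shared run of 15. How far RNA of one gene adds to the signal of the other gene's probe was not tested. A second GSTO1 probe overlapped the first by 37 bases, so the GSTO1 probes share a target and are not independent.

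On the arrays of A2780CBN, the GSTO1 intensity of the resistant line was 31976, 31394, 24486 and 26825. The control gave 15127, 12998, 10670 and 11250 on the same arrays. The line was above its control on all 4, and the lowest line value lay above the highest control value. The log2 ratios were 1.08, 1.27, 1.20 and 1.25, with a mean of 1.20 ± 0.09, or 2.30-fold. The second probe gave 1.25 ± 0.08.

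In A2780CBNDXL the GSTO1 intensity was 18151 and 18289 on slide 1 and 12663 on the reverse array of slide 2. Its control gave 22144, 23912 and 15271. The spot on the forward array of slide 2 was marked as an outlier by the software, so the value rests on 3 arrays, and the allowance for 1 missing array was made after seeing the data. The log2 ratios were -0.29, -0.39 and -0.27, with a mean of -0.31 ± 0.06 (n = 3). GSTO1 was thus below its control on each of these arrays by less than the 2-fold limit. The second probe, present on all 4 arrays, gave -0.35 ± 0.17.

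GSTO2 showed a different order. In A2780CBN its intensity was 335, 282, 283 and 398 in the resistant line and 168, 197, 148 and 323 in the control. The log2 ratios were 1.00, 0.52, 0.94 and 0.30, with a mean of 0.69 ± 0.33, so that the line was above its control on all 4 arrays and the gene was not called. In A2780CBNDXL the line gave 2443, 2137, 2151 and 1802 and the control 438, 452, 359 and 351. Line and control values did not overlap there. The log2 ratios of 2.48, 2.24, 2.58 and 2.36 had a mean of 2.42 ± 0.15, or 5.34-fold. With another background correction (normexp) and loess normalization the mean was 1.86.

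**Figure D2:**
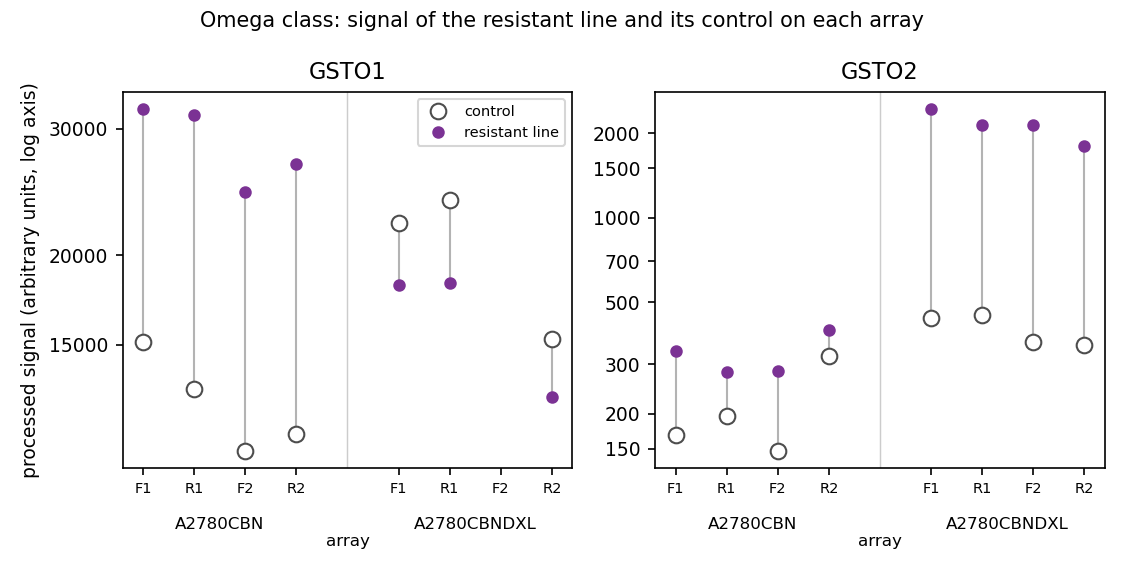
Processed intensity (vertical log axis, arbitrary units) of GSTO1 and GSTO2 in the resistant line (filled) and the control (open) on each array. F1, R1, F2 and R2 are the forward and reverse arrays of slides 1 and 2, and GSTO1 has no F2 point in A2780CBNDXL. GSTO1 was above its control in A2780CBN and below it in A2780CBNDXL, and GSTO2 was above its control in both.

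Levels can be set side by side for 1 probe across the 4 kinds of RNA once channels are scaled between arrays by the Aquantile method. On that log2 scale GSTO1 had a level of 14.88 ± 0.27 in A2780CBN, 14.19 ± 0.53 in the control of A2780CBNDXL, 13.88 ± 0.51 in A2780CBNDXL and 13.68 ± 0.30 in the control of A2780CBN. The GSTO1 levels of A2780CBNDXL and its control rest on 3 arrays. These SDs hold the spread between arrays, and each line shares its arrays with its own control, so for those pairs the ratios above are the closer comparison. Between RNAs of different arrays, the SD ranges of A2780CBN and the control of A2780CBNDXL overlapped, and so did those of A2780CBNDXL and the control of A2780CBN. The ranges of the controls overlapped as well, and those of the resistant lines did not. Such ranges ignore the matching of arrays by slide and labelling direction, which is used in the direct comparisons further below. GSTO2 had a level of 10.99 ± 0.30 in A2780CBNDXL, 8.58 ± 0.24 in its control, 8.36 ± 0.27 in A2780CBN and 7.67 ± 0.54 in the control of A2780CBN. Here A2780CBNDXL stood apart by more than the spread, and the SD ranges of its control and A2780CBN, on different arrays, overlapped.

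The pattern of GSTO1 over 7 arrays was compared with that of 12175 other genes above background on the same arrays. The genes closest to it by Euclidean distance of the log2 ratios were ISG15 (distance 0.269), MT1B (0.298) and SHISA4 (0.373). ISG15, a ubiquitin-like protein induced by interferon, had mean log2 ratios of 1.29 in A2780CBN and -0.28 in A2780CBNDXL. For GSTO2, over 8 arrays and 11825 genes, the 2 closest were TYMP (0.512) and MAPRE2 (0.634). TYMP, which encodes thymidine phosphorylase, had mean log2 ratios of 0.83 and 2.33.

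Genes within 200 kb of the omega pair were examined after the values of the members had been seen. C10orf78 and ITPRIP were the genes there, outside the pair, that had a detectable signal in both lines. C10orf78 was called higher in A2780CBN, with a log2 ratio of 1.09 ± 0.23, and gave -0.03 ± 0.03 in A2780CBNDXL. ITPRIP was not called, with 0.39 ± 0.42 and -0.42 ± 0.26. The shares of all genes called were 12.2% in A2780CBN and 16.6% in A2780CBNDXL.

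The promoters of the omega genes are shown because these neighbours gave different ratios. They were taken from RefSeq on GRCh38.p14, plus strand, as the 250 bases before each start, at chr10:104254642-104254891 for GSTO1. GSTO2 has 2 listed starts, with windows at chr10:104268934-104269183 and chr10:104274916-104275165. Capitals mark matches to TGACNNNGC on either strand, the core of the antioxidant response element, whose first 4 letters also open the AP-1 and CRE motifs.
GSTO1 promoter: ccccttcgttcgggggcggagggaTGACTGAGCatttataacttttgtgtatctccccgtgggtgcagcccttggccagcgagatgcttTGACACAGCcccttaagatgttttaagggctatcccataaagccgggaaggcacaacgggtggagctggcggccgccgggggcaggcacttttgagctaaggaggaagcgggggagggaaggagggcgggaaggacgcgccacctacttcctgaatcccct
GSTO2 promoter 1: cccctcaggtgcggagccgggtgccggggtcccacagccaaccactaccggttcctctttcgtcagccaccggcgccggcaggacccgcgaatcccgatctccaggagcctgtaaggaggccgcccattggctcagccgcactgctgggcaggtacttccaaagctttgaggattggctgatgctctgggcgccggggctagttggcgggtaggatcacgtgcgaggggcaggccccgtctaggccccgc
GSTO2 promoter 2: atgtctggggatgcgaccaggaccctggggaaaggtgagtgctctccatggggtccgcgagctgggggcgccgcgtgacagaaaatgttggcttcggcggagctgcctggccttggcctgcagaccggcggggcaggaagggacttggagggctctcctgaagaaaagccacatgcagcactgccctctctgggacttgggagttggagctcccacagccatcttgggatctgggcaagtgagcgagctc

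The motif was searched on both strands in windows of 300 bases, from 250 before to 50 after each start. It was present in 13.3% of all 35116 windows. Of the 10 transferase genes 9 had a window, all but GSTT1, and 5 of these held the motif: GSTO1, GSTP1, GSTA4, GSTM1 and MGST1, the last in 1 of 3 windows. GSTO1 had 2 matches, and GSTO2, GSTM2, GSTM3 and GSTM4 had 0. A match describes the letters and not a bound site, and members with and without it were among those called higher.

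GSTP1 is the pi class enzyme, and its protein also binds the kinase JNK. In A2780CBN its intensity was 93209, 128075, 94807 and 131306 in the line and 117193, 80793, 124433 and 79192 in the control. The log2 ratios of -0.33, 0.66, -0.39 and 0.73 changed sign with the labelling direction, and their mean was 0.17 ± 0.61. In A2780CBNDXL they were -0.74, -0.62, -0.81 and -0.47, with a mean of -0.66 ± 0.15. GSTP1 was therefore below its control on 4 of 4 arrays of that line, by 1.58-fold, and was not called.

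GSTA4, an alpha class enzyme that acts on 4-hydroxynonenal, a product of lipid peroxidation, was above its control on all 8 arrays. Its log2 ratios were between 0.24 and 0.86 in A2780CBN, with a mean of 0.53 ± 0.33, and between 0.69 and 0.93 in A2780CBNDXL, with a mean of 0.80 ± 0.11. GSTT1, a theta class enzyme that acts on small halogenated compounds, was also above its control on all 8. Its means were 0.63 ± 0.34 and 0.70 ± 0.13, and its second probe gave 0.57 ± 0.32 and 0.74 ± 0.20. Neither gene reached 2-fold in either line.

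The mu class genes lie side by side on chromosome 1, in the order GSTM4, GSTM2, GSTM1, GSTM5 and GSTM3. The probes that stand for the first and last of them start at chr1:110003151 (GSTM4) and chr1:110081137 (GSTM3) on NCBI36. These enzymes conjugate electrophiles, and GSTM1 protein also binds the kinase ASK1, the product of MAP3K5. The genes are alike, and the file lists transcripts of both GSTM1 and GSTM4 for the GSTM1 probe and for the brightest GSTM4 probe. The values of GSTM1 and GSTM4 are therefore not independent of each other.

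GSTM2 was the member called in both lines. In A2780CBN its intensity was 1580, 887, 1435 and 908 in the line and 409, 667, 324 and 685 in the control. The log2 ratios were 1.95, 0.41, 2.15 and 0.41, with a mean of 1.23 ± 0.95, or 2.34-fold. The line was above its control on all 4 arrays, but the forward arrays averaged 2.05 and the reverse arrays 0.41, so the call depended on the labelling direction. It was also lost with normexp and loess, which gave 0.95.

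In A2780CBNDXL the GSTM2 intensity was 2322, 2974, 2301 and 2687 in the line and 582, 358, 563 and 316 in the control. Line and control did not overlap. The log2 ratios of 2.00, 3.06, 2.03 and 3.09 had a mean of 2.54 ± 0.61, or 5.83-fold. Here the reverse arrays gave the larger ratio, 3.07 against 2.01, and each direction alone passed the 2-fold limit.

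GSTM1 is printed in 10 spots on each array. In A2780CBN its intensity was 790, 445, 736 and 432 in the line and 224, 444, 202 and 403 in the control. The log2 ratios of 1.82, 0.00, 1.87 and 0.10 had a mean of 0.95 ± 1.03, just under the limit. On the reverse arrays line and control were nearly equal. In A2780CBNDXL the line gave 788, 971, 818 and 842 and the control 340, 225, 345 and 177. The log2 ratios there were 1.21, 2.11, 1.25 and 2.25, with a mean of 1.70 ± 0.55, or 3.26-fold. With normexp and loess this mean was 1.04.

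GSTM4 was not called in either line. Its brightest probe gave log2 ratios of 1.71, 0.11, 1.79 and -0.06 in A2780CBN, with a mean of 0.89 ± 1.00. In A2780CBNDXL it gave 0.63, 1.36, 0.55 and 1.42, with a mean of 0.99 ± 0.47, just inside the limit. It passed the limit without the reverse array of slide 1 or without the forward array of slide 2. On reverse arrays alone it was called, at 1.39, and on forward arrays alone it gave 0.59. The other GSTM4 probes gave 0.99 ± 0.88 and 0.96 ± 1.07 in A2780CBN, and 0.46 ± 0.54 and 0.82 ± 0.37 in A2780CBNDXL.

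**Figure D3:**
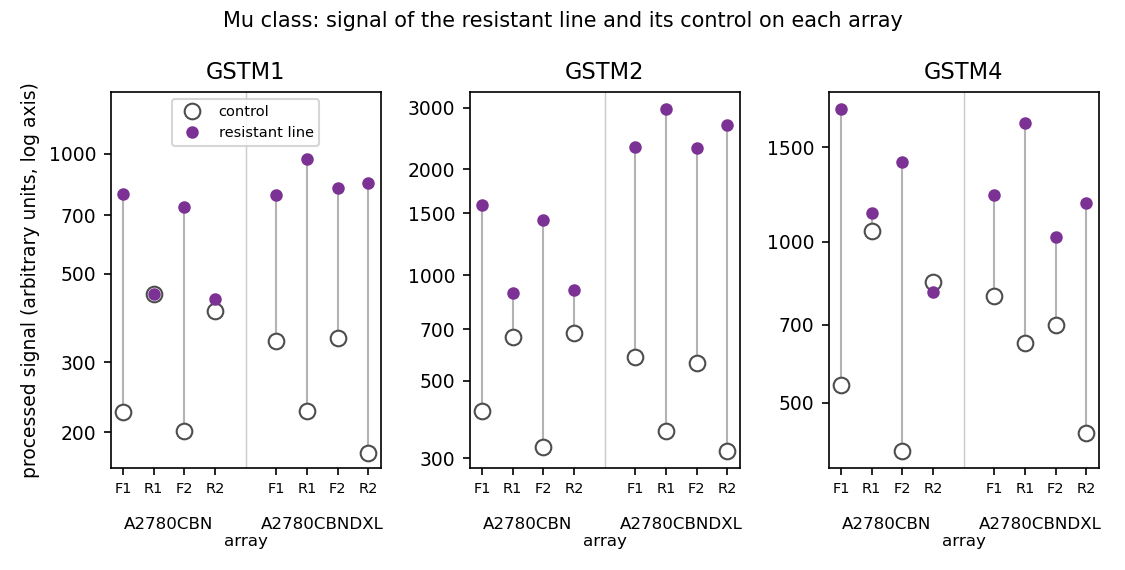
Processed intensity (vertical log axis, arbitrary units) of GSTM1, GSTM2 and GSTM4 in the resistant line (filled) and the control (open) on each array. F1, R1, F2 and R2 are the forward and reverse arrays of slides 1 and 2. In A2780CBN the gap between line and control is wide on forward arrays and narrow on reverse arrays, and in A2780CBNDXL the reverse arrays have the wider gap.

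The difference between labelling directions was measured for each gene as the forward mean minus the reverse mean. In A2780CBN it was 1.79 for GSTM1, 1.64 for GSTM2 and 1.73 for GSTM4. These differences were larger in size than those of 99.2%, 98.9% and 99.1% of the 18598 genes tested, whose median size was 0.35. In A2780CBNDXL the differences were -0.95, -1.06 and -0.81, larger in size than those of 95.1%, 97.1% and 91.3% of 17905 genes. The mu genes thus shared a dependence on direction that had opposite signs in the 2 lines, and its cause was not tested. GSTO1 had differences of -0.12 and 0.04, and GSTO2 of 0.56 and 0.23. Outside the mu class, GSTP1 had -1.06 in A2780CBN, larger in size than 94.0% of genes, and -0.23 in A2780CBNDXL.

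GSTM3, the mu enzyme known from testis and brain, had 3 probes. None of them was well above background on any array of A2780CBN. In A2780CBNDXL 1 of the 3 was above background, on the reverse array of slide 1 and on no other array, at 68.3 in the line and 53.2 in the control. That probe is shown with the brightest GSTM4 probe because they are alike. Capitals mark the bases that match between them in the alignment.
GSTM4 probe: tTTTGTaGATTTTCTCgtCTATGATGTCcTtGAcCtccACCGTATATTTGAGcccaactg
GSTM3 probe: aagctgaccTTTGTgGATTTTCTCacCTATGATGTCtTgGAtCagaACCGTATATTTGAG

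These probes matched at 42 of 52 aligned bases, with a longest run of 14. The GSTM4 probe was well above background in both channels on all 8 arrays, and the GSTM3 probe was so on 1.

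Genes within 200 kb of the mu cluster were also examined after the members' values had been seen. ATXN7L2, CYB561D1, AMIGO1, GNAI3, AMPD2 and CSF1 were detectable in both lines, and none was called in either. Among all genes 12.2% were called in A2780CBN and 16.6% in A2780CBNDXL, so few calls would be found among so few genes in any case. GSTM5, the remaining mu gene, belongs to the list of other transferases. Its log2 ratios of 1.05, 2.35, 1.28 and 2.22 in A2780CBNDXL had a mean of 1.73 ± 0.65, or 3.31-fold. Its difference between directions was 1.86 in A2780CBN and -1.12 in A2780CBNDXL, with the signs of GSTM1, GSTM2 and GSTM4. Its second probe did not have this pattern. It gave -0.77, -0.08, -0.24 and -0.33 in A2780CBN, with a mean of -0.35 ± 0.29, and 0.76, 0.30, 0.76 and 0.77 in A2780CBNDXL, with a mean of 0.64 ± 0.23.

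MGST1 is a microsomal enzyme of the endoplasmic reticulum and the outer mitochondrial membrane that also reduces lipid peroxides. In A2780CBN its intensity was 3354, 2723, 2640.4 and 2178 in the line and 4461, 5072, 3412 and 3888 in the control. The log2 ratios were -0.41, -0.90, -0.37 and -0.84, with a mean of -0.63 ± 0.28. In A2780CBNDXL the line gave 7514, 11343, 8917 and 7366 and the control 4298, 8139.5, 5654 and 4778. The log2 ratios of 0.81, 0.48, 0.66 and 0.62 had a mean of 0.64 ± 0.13, or 1.56-fold. MGST1 was below its control on 4 of 4 arrays of one line and above it on 4 of 4 of the other, and was called in neither.

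The resistant lines were then set against each other directly, because a ratio to a control mixes the levels of both. The channels of A2780CBNDXL and A2780CBN were paired by slide and labelling direction after Aquantile scaling, giving 4 pairs. By the same 2-fold rule 3 of 9 members were called, where 15.9% of 18290 genes were. GSTO2 was higher in A2780CBNDXL by 3.03, 2.67, 2.87 and 1.96 in the pairs, with a mean of 2.63 ± 0.47, or 6.20-fold. MGST1 was higher by 1.33, 1.68, 1.76 and 1.39, with a mean of 1.54 ± 0.21, or 2.90-fold. Thus MGST1, which was called against neither control, was called between the lines.

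GSTM2 was higher in A2780CBNDXL by 0.71, 1.48, 0.60 and 1.34, with a mean of 1.03 ± 0.44. This call was lost with quantile normalization of all channels (0.98), without the reverse pair of slide 1 (0.998) and on slide 2 alone (0.97). GSTO1 was lower in A2780CBNDXL, with differences of -0.69, -1.24 and -1.38 and a mean of -0.999 ± 0.36 (n = 3), just inside the limit. It passed the limit with quantile normalization (-1.04), without the reverse pair of slide 1 (-1.03) and with the mean of its probes (-1.07), and lay further inside it with median scaling (-0.83) and on slide 1 alone (-0.96). Its second probe, with values in all 4 pairs, gave -1.09 ± 0.35 and passed the limit. GSTT1 differed by 0.61 ± 0.11, GSTA4 by 0.52 ± 0.16, GSTP1 by -0.53 ± 0.45, GSTM1 by 0.48 ± 0.41 and GSTM4 by -0.09 ± 0.45. None of these 5 reached the limit.

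**Figure D4:**
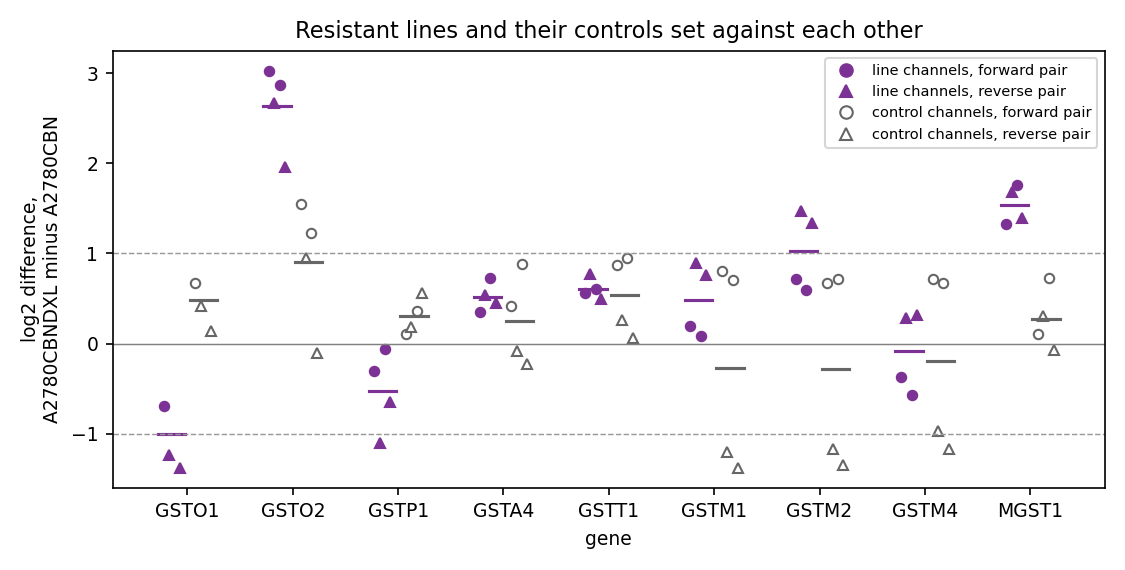
Log2 difference of A2780CBNDXL minus A2780CBN (vertical axis) for the 9 members with signal, in the resistant-line channels and in the control channels, with 1 point for each matched pair of arrays and the mean. GSTO2 and MGST1 lie above 1 in the line channels on every pair, and in the control channels the mu genes fall on both sides of 0.

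The controls were compared in the same way, since each line had its own. None of the 9 members was called, where 4.51% of 18079 genes were. GSTO2 came nearest, with differences of 1.55, 0.95, 1.23 and -0.10 and a mean of 0.91 ± 0.71. It was called, as 1 of 9, without the reverse pair of slide 2 (4.74% of all genes) and on slide 1 alone (5.84%). GSTO1 was higher in the control of A2780CBNDXL in each pair with a value, by 0.68, 0.42 and 0.14. Its mean was 0.48 ± 0.27 (n = 3), under the limit. Its second probe gave 0.64, 0.30, 0.78 and 0.36, with a mean of 0.52 ± 0.23. The mu genes changed sign with the labelling direction. GSTM1 had 0.80, -1.21, 0.70 and -1.38, GSTM2 had 0.67, -1.17, 0.72 and -1.34, and GSTM4 had 0.71, -0.97, 0.67 and -1.17.

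Because the controls differed, each line was also set against the control of the other line, a comparison added after seeing the data. A2780CBN then gave 0.69 for GSTO1 and -0.22 for GSTO2, and 3 of 9 members, GSTM1, GSTM2 and GSTM4, were called (12.99% of 18332 genes were), at 1.22 for GSTM1 and 1.51 for GSTM2. A2780CBNDXL gave 0.17 for GSTO1, 3.32 for GSTO2, 1.43 for GSTM1 and 2.26 for GSTM2. The GSTO1 call in A2780CBN was thus lost against the other control, and the calls of GSTO2, GSTM1 and GSTM2 in A2780CBNDXL were not. GSTA4 and GSTT1 were called there as well (16.97% of all genes were). MGST1 gave -0.90 and 0.91 in the 2 lines, uncalled in both.

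Other genes of glutathione use came from 6 lists with 59 names, of which 56 were on the arrays. In A2780CBN 41 were tested, 2 were called higher and 1 lower, where 12.2% of all genes were called, with a median log2 ratio of 0.06. In A2780CBNDXL 40 were tested, 4 were called higher and 5 lower, where 16.6% of all genes were called, with a median of -0.04. The members' medians of 0.69 and 0.80 lay above both. The median in A2780CBN is the value of GSTO2, which gave 0.97 on forward arrays alone and 0.41 on reverse arrays alone. Against the control of the other line GSTO2 gave -0.22. The members' medians were not taken under those settings.

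Among the other transferases and their membrane-bound relatives, 0 of 8 were called in A2780CBN (12.2% of all genes) and 3 of 8 in A2780CBNDXL (16.6% of all genes). Beside GSTM5 these were MGST3, a relative of MGST1, at 1.27 ± 0.13, and LTC4S, which makes leukotriene C4, at 1.38 ± 0.37. The median of this list was 0.35 in A2780CBN and 0.43 in A2780CBNDXL. GSTM5 and LTC4S were not called with normexp and loess. GSTT2, a theta class relative of GSTT1, was not tested in A2780CBNDXL because its brightest probe, at -1.05 ± 0.81, was not above background on all arrays. Its dimmer probe passed the rule as lower, at -1.14 ± 0.25, and GSTT2 was called on slide 2 alone, on reverse arrays alone, with the mean of its probes and with no filter on dim probes. It was named after its values were seen.

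The substrate of the transferases is made by a ligase whose catalytic subunit is GCLC and whose modifier is GCLM, from cysteine that SLC7A11 imports as cystine. In A2780CBN GCLC was 3.09 ± 0.42 higher, or 8.50-fold, the single call among 5 genes of synthesis and cystine uptake. GCLM gave -0.29 ± 0.20. A dimmer GCLC probe gave 3.52 ± 0.36 and a dimmer GCLM probe 0.03 ± 0.19. SLC7A11 gave 0.80 ± 0.22 there, and a dimmer probe of it, at 1.01 ± 0.17, passed the rule as higher. In A2780CBNDXL 3 of 5 were called lower: GCLC at -1.22 ± 0.48, GCLM at -1.83 ± 0.38 and SLC7A11, where 9.02% of all genes were called lower. The GCLC ratios were -0.82, -1.59, -0.80 and -1.68, and GCLC was not called on forward arrays alone. The dimmer GCLC probe, with ratios of -1.05, -1.24, -0.99 and -1.33 and a mean of -1.15 ± 0.16, passed the rule as lower. The dimmer GCLM probe, at -1.56 ± 0.05, passed it as lower too. SLC7A11 was not well above background in A2780CBNDXL on any array, which puts it at least 11.5-fold lower than its control. The list's medians were 0.53 and -1.22. With normexp and loess GCLM alone of the 3 was called.

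The other lists held 1 or 2 calls each in a line, or 0, beside the 12.2% and 16.6% of all genes. GPX3, a secreted glutathione peroxidase, was lower in A2780CBN at -1.39 ± 0.51, the single call among 7 genes of reduction and peroxidation, and 0 of 6 were called in A2780CBNDXL. GLRX, a glutaredoxin that removes glutathione from proteins, was higher in A2780CBN at 1.43 ± 0.06, or 2.70-fold, the single call among 6 glutaredoxins and glyoxalases, and 0 of 6 were called in A2780CBNDXL. Medians of these lists were 0.03 and 0.21 for peroxidases, and 0.02 and -0.37 for glutaredoxins and glyoxalases.

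Of 6 genes for export and breakdown of conjugates, 0 were called in A2780CBN and 1 in A2780CBNDXL. That was GGT1, which cleaves the gamma-glutamyl bond of glutathione and its conjugates, at 1.14 ± 0.07, or 2.20-fold. Of 9 regulators and kinases, 0 were called in A2780CBN and 2 were lower in A2780CBNDXL. They were MAFF, a small partner of NRF2, at -1.78 ± 0.25, and MAP3K5, the ASK1 kinase, at -2.47 ± 1.14 with the line well above background on 1 of 4 arrays. NFE2L2, which encodes NRF2, gave 0.06 and 0.10 in the lines, and its inhibitor KEAP1 gave 0.09 and 0.73, so neither was called. Medians were 0.01 and -0.24 for export and breakdown, and 0.02 and -0.68 for regulators and kinases. GPX3 in A2780CBN, and GGT1, MAFF and MAP3K5 in A2780CBNDXL, were not called with normexp and loess.

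**Figure D5:**
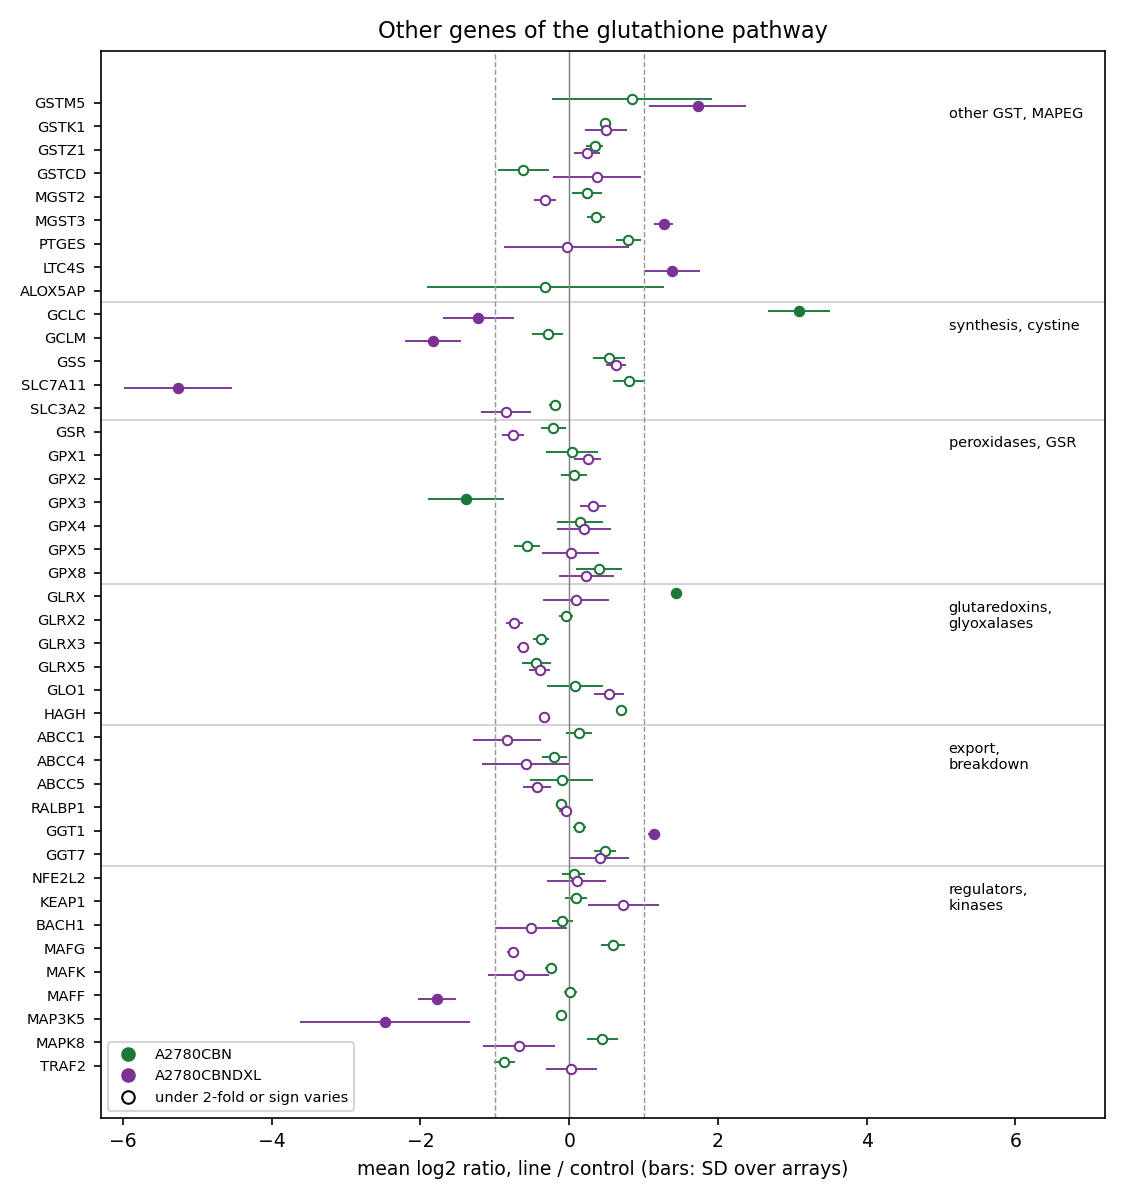
Mean log2 ratio of resistant line over control (horizontal axis) for the genes of the glutathione lists in A2780CBN and A2780CBNDXL, with bars for the SD over arrays. Filled points were called, open points were not, and genes without a signal well above background are left out. The SLC7A11 point of A2780CBNDXL rests on a line signal at background. GCLC lies at 3.09 in A2780CBN and -1.22 in A2780CBNDXL.

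Markers of other cell types were read beside these results. Of the leukocyte markers PTPRC was at background on every array, and the summed intensity of 3 genes was 140.4 in A2780CBN, 164 in its control, 135 in A2780CBNDXL and 169 in its control, with CD3E brightest in the lines and CD14 in the controls. Of the endothelial markers PECAM1 and CDH5 were at background, and the sums of 3 genes, of which VWF was brightest, were 38.5, 36.3, 44.2 and 34.8 in the same order. Only 2 of the leukocyte markers had enough signal to be tested, of which 0 were called in either line, and 0 of the endothelial markers could be tested. All 3 fibroblast genes had signal, and their sums were 691, 1788, 7793 and 7478, the brightest being COL1A1, COL1A2, DCN and COL1A2. Their log2 ratios in A2780CBN and A2780CBNDXL were 0.99 ± 0.08 and 2.04 ± 0.20 for COL1A1, -5.67 ± 0.15 and -2.81 ± 0.07 for COL1A2, and 2.21 ± 0.46 and 3.62 ± 0.29 for DCN. These genes moved in both directions within each line, and their part in the transferase values was not tested.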

How the data were processed

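RNA of A2780CBN and of A2780CBNDXL was compared with its co-cultured control on 8 two-colour Agilent arrays. The authors deposited the output of Agilent Feature Extraction, versions 10.7.1.1 (slide 1) and 10.7.3.1 (slide 2), with probe positions on NCBI36. The value used is the processed intensity of each channel, in arbitrary units, which in the deposited files is background-subtracted and normalized for dye. The authors' dye entries for reverse arrays conflict with the name of these arrays and with the methods. Red over green log2 ratios of forward and reverse arrays correlated across 20530 probes at -0.65 to -0.69 in A2780CBN and -0.82 to -0.83 in A2780CBNDXL (genes are not independent replicates), so reverse arrays were turned over. The sign of all ratios rests on the labels of the forward arrays.

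Spots marked as outliers were left out, none was saturated, and spots of a probe were averaged. Where a gene had several probes the brightest stood for it, and the others were read beside it. Calls allowed 1 array without an unmarked spot, a choice made after seeing the data. Where a channel was not above background on any array the fold is a lower bound. Channels were scaled between arrays with Aquantile (limma 3.58.1, R 4.3.3). Other steps used Python 3.11.15, pandas 2.3.3, numpy 2.4.6, scipy 1.17.1 and matplotlib 3.10.9. The 2-fold rule for ratios to controls and the linear model were tested on simulated data, and the other steps were not. The number of arrays limits the precision.

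Genes named are the 10 members, the genes of 6 lists that pass the 2-fold rule (up to 4 for each list and line), markers, and the genes closest in pattern to GSTO1 (3 named) and to GSTO2 (2 named). Neighbours on the chromosome, NFE2L2, KEAP1 and values of uncalled genes were named after their values were seen. The members and lists were chosen with earlier results of these data known. PGDS, GGTLA1, GGTL3 and the marker TACSTD1 were not on the arrays by name. Alternatives were normexp (offset 50) with loess, median-centred ratios of background-subtracted signals, each array or matched pair left out, each slide alone, the mean of all probes, no filter or a filter on both channels, a 1.5-fold limit, a linear model at an adjusted p of 0.05, with line, dye and slide chosen as its factors because the study's methods name a 3-factor model and not its factors (the study's further filter on genes that differed between repeats or labelling directions was not applied), and, between lines, median and quantile scaling. The linear model left out genes without a value on an array, so GSTO1 in A2780CBNDXL was not in it. Each labelling direction alone, an unmarked spot on all arrays, and the control of the other line were added after seeing the data. The docetaxel-resistant line is not among these files.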

Additional observations from a re-analysis of the deposited data

Results flagged for a closer look

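GSTO1 was above its control on every array of A2780CBN (mean log2 ratio 1.20) and below it on every array with a value in A2780CBNDXL (-0.31). MGST1 was below its control on every array of A2780CBN (-0.63) and above it on every array of A2780CBNDXL (0.64). Against the control of the other line, a comparison added after seeing the data, GSTO1 gave 0.69 in A2780CBN, where its call was lost, and 0.17 in A2780CBNDXL, so that the signs no longer differed. MGST1 gave -0.90 and 0.91 there, and its signs still differed. These differences between the lines were not tested, as each line is 1 pooled sample.

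On the forward array of slide 1 of A2780CBNDXL, the coefficient of variation of the spike-in controls was 19.6% in green and 20.0% in red, far from the other arrays, which lay between 3.56% and 4.87%. In all, 23 groups of 4 arrays were examined and 2 held such a value, which are the 2 channels of this array and not separate events. Chance alone marks about 1 in 20 groups, which is the nominal rate of the rule and was not measured here. Without this array 3 transferase genes were called in A2780CBNDXL, GSTO2, GSTM1 and GSTM2, as with it (17.3% of all genes were).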

How the results depend on the processing

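No paired analysis was possible because each line is 1 pooled sample, and the matched pairs of arrays pair technical repeats of it. Member values (10 genes in 2 lines) moved by over 1 SD over arrays in 9 of 20 with the control of the other line and in 2 of 20 with normexp and loess, and in 0 of 20 with median-centred background-subtracted signals. Values from part of the same arrays can hardly move by 1 SD of those arrays, so they say nothing of stability by that measure.

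Transferase genes called in A2780CBN numbered 2. There was 1 with normexp and loess (GSTO1), 6 at 1.5-fold (where 26.7% of all genes were called), 4 on forward arrays alone (15.6%) and 1 on reverse arrays alone (GSTO1, 15.2%). In A2780CBNDXL the count was 3, with 8 at 1.5-fold (32.9% of all genes) and 5 against the control of the other line (16.97%). With an array left out it was 3 to 4 (16.5% to 17.3%). It was 3 on forward arrays alone (16.1%) and 4 on reverse arrays alone (21.8%). Other glutathione genes called in A2780CBN numbered 3, with 9 at 1.5-fold and 5 on forward arrays alone. In A2780CBNDXL they numbered 9, with 2 under normexp and loess and 19 at 1.5-fold. There were 13 on forward arrays alone and 12 on reverse arrays alone. With both channels above background there were 6 (12.4% of all genes), without LTC4S, SLC7A11 and MAP3K5. Between the resistant lines the count was 3, with 5 at 1.5-fold (30.3%). Between the controls it was 0, with 1 on slide 1 alone (GSTO2, 5.84%). With a pair left out it was 0 to 1 (4.73% to 5.37%). The linear model took the channels of technical arrays as separate observations, so its adjusted p holds no spread between cultures. The linear model, run without the study's further filter on labelling direction, gave 2, 3, 3 and 9 for the ratios to controls, in the order members then other genes of A2780CBN, then of A2780CBNDXL.

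Normexp with loess lowered the share of all genes called from 12.2% to 3.34% (621 genes) in A2780CBN and from 16.6% to 6.89% (1234) in A2780CBNDXL. The 1.5-fold limit raised the counts to 4959 and 5886. Median scaling put the median difference of all genes between the resistant lines at 0.16, where Aquantile put it at 0.07, and the same 3 members were called. The 1.5-fold limit admits smaller changes by construction. The normexp offset is a constant added to both channels, so it shrinks the ratios of dim probes by construction. How much of the fall in calls under normexp and loess came from the offset was not tested. The cause of the other shifts was not tested either. Signals near background limit the values of GSTM3 and of SLC7A11 in A2780CBNDXL. With 1 sample for each line, none of these values measures variation between cultures.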
